A study of Mus musculus with 8 samples.

Results

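The genes described here are those of glycolysis and of the hypoxia response in RAW264.7 cells, a mouse macrophage line. They were chosen by name from a list of 35 genes that covers glucose entry, the glycolytic enzymes, lactate export, the oxygen sensors and targets of hypoxia-inducible factor 1 (HIF-1). Of the 35 genes, 34 had at least 1 probe well above background on at least 2 arrays, and all 34 were above background on all 8 arrays. They are 34 of the 20076 genes tested and hold 78 of the 30429 probes that passed that filter. The one left out was P4ha2, whose probes were above background on no array.

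One arm of 4 cultures had no melatonin and the other arm of 4 received 1 mM melatonin for 1 h before any LPS. Within each arm 1 culture got no LPS, and the others got 100 ng/ml LPS, a bacterial outer membrane component from E. coli O55:B5, for 1, 3 or 5 h. RNA of each culture went on 1 one-colour array, so every condition has a single array and no replicate of its own. The LPS changes are therefore means over both arms, each from 2 arrays at that time and the 2 that had no LPS. The melatonin difference rests on 4 arrays in each arm. The spread comes from how far the arms depart from parallel curves, in 1 cell line, so it may be technical. No culture without LPS matches each LPS time, so LPS and hours in culture cannot be told apart. All 8 arrays lay on 1 slide, with 1 slide column for each LPS time and 1 slide row for each arm, and these cannot be told apart from LPS time and melatonin either.

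Glycolysis turns glucose into pyruvate, and much of that pyruvate leaves an activated macrophage as lactate. HIF-1 is a transcription factor whose alpha subunit, encoded by Hif1a, is hydroxylated by the oxygen-dependent EGLN enzymes and then degraded. When oxygen falls HIF-1 accumulates and raises glucose carriers, glycolytic enzymes and its own brakes, the Egln genes; in macrophages LPS is known to raise the Hif1a transcript as well.

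The stretch just before the transcription start is shown for 6 genes, because it holds the letters that HIF-1 is known to read and because the carriers and hexokinase among them rose while the sensors and Ankrd37 fell. Each line gives the 250 bases before the start, 5′ to 3′ on the gene's strand, from the promoter table of RefSeq on build GRCm38.p6. Capitals mark every match, on either strand, to ACGTG, the core of the hypoxia response element, or to the related GCGTG; a match on the other strand reads CACGT or CACGC, and overlapping matches run together.
Slc2a1, chr4:119108495-119108744, plus strand: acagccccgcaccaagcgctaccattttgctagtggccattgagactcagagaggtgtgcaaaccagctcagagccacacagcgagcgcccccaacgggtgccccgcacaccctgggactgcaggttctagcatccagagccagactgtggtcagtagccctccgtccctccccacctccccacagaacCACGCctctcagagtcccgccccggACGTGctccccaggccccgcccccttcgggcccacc
Hk2, chr6:82774455-82774704, minus strand: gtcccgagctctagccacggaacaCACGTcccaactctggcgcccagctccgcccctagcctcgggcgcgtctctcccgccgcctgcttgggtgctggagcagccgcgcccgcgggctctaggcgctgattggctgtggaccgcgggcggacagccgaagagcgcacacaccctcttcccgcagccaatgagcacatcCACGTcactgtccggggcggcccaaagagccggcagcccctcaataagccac
Slc16a3, chr11:120948817-120949066, plus strand: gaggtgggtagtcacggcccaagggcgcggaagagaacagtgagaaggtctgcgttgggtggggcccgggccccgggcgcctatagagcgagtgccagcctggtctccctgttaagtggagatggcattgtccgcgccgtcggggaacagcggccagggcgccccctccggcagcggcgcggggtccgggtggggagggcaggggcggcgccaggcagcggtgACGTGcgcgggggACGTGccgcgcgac
Egln1, chr8:124949255-124949504, minus strand: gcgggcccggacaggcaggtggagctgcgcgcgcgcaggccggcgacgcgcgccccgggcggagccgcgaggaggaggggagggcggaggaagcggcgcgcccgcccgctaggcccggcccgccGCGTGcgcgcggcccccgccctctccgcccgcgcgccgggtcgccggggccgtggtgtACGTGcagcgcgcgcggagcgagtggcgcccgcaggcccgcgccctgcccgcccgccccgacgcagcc
Egln3, chr12:54203875-54204124, minus strand: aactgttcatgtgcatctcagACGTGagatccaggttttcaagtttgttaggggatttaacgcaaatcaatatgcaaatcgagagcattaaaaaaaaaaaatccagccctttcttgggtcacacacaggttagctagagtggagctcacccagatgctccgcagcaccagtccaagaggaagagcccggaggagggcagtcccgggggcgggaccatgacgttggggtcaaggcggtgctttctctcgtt
Ankrd37, chr8:45999851-46000100, minus strand: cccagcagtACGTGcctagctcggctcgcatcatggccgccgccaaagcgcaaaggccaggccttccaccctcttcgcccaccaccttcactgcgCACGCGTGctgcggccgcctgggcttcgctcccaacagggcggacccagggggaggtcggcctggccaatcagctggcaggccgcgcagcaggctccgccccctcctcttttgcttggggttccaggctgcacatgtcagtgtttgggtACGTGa

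The cores sit near the start in several of these. The nearest ACGTG begins 36 bases before the start in Slc2a1, 52 in Hk2, 14 in Slc16a3, 68 in Egln1 and 6 in Ankrd37, whereas the single match of Egln3 begins 229 bases before it. RefSeq windows that run from 250 bases before to 50 after a start were found for 33 of the 35 genes, in 49 windows. Either core was present in 79.6% of those windows and in 43.8% of the 32851 windows of all genes. For ACGTG alone the shares were 57.1% and 19.6%, and for GCGTG alone 55.1% and 32.4%. The longer CACGTG, which contains ACGTG, was in 10.2% and 7.2%. The match did not sort the genes by direction: 15 of the 17 that rose at 5 h of LPS, 6 of the 6 with a window that fell and 8 of the 9 that did neither held a core. These shares were not matched for base composition, and a match is a description of the letters only.

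Levels below are log2 signals minus the 75th percentile of the same array, so a level of 0 is the brightness of that percentile, and levels of different genes are not compared because probes differ. The 75th percentile fell from 830.1 to 659.1 over the LPS times without melatonin and from 846.1 to 718.7 with it, and the share of probes well above background ran from 46.96% to 52.99%. All 10 macrophage markers were above background on all 8 arrays, and all 4 epithelial markers on none. Of the T cell markers on the array, Cd3e, Cd3d and Lck were above background on all 8 and Cd8a on none. B cell markers were above background on at most 3 arrays, endothelial ones on at most 2, and of the fibroblast markers Col1a2 on 6 and the others on none. Another label of the submitters names an LPS time 1 step later than the title for 3 of the 4 melatonin cultures, and titles were used. Tnf, an early LPS gene, stood at 2.72, 7.52, 8.48 and 8.13 at 0, 1, 3 and 5 h without melatonin, and at 2.54, 6.79, 7.40 and 7.42 with it. The culture titled melatonin alone was therefore low in Tnf, although the other label gives it LPS.

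Over the hours of LPS these genes changed in both directions, and more were called at 3 and 5 h than at 1 h. At 1 h, 4 of the 34 were higher and 1 lower; limma with Benjamini-Hochberg adjustment over all genes called 1.96% of all genes (1.67% up, 0.284% down). At 3 h, 15 rose and 10 fell, against 33.7% of all genes (18.6% up, 15.1% down). At 5 h, 17 rose and 8 fell, against 44.2% (24.9% up, 19.4% down), and 5 of the rises and 6 of the falls were at least 2-fold. The median change at 5 h was 0.19 over the 34 genes and 0.08 over all genes tested. All 25 genes called at 5 h moved the same way in both arms, though a test of the mean favours that. The 15 raised at 3 h were all raised at 5 h too, and 8 of the 10 lowered at 3 h were still lowered. Both changes are taken from the same arrays without LPS, which favours such an overlap, and it was not counted over all genes. The balance depends on scaling: with quantile normalization 9 of the members rose and 14 fell at 3 h, and 11 rose and 14 fell at 5 h. Among all genes the share of calls that were rises went from 55.2% to 42.4% at 3 h and from 56.2% to 43.2% at 5 h under that scaling. The 1 h calls were 0 without the array of 1 h LPS and no melatonin. The 3 h calls were 11 without the untreated array and 13 without the array of 3 h LPS and no melatonin.

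**Figure D1:**
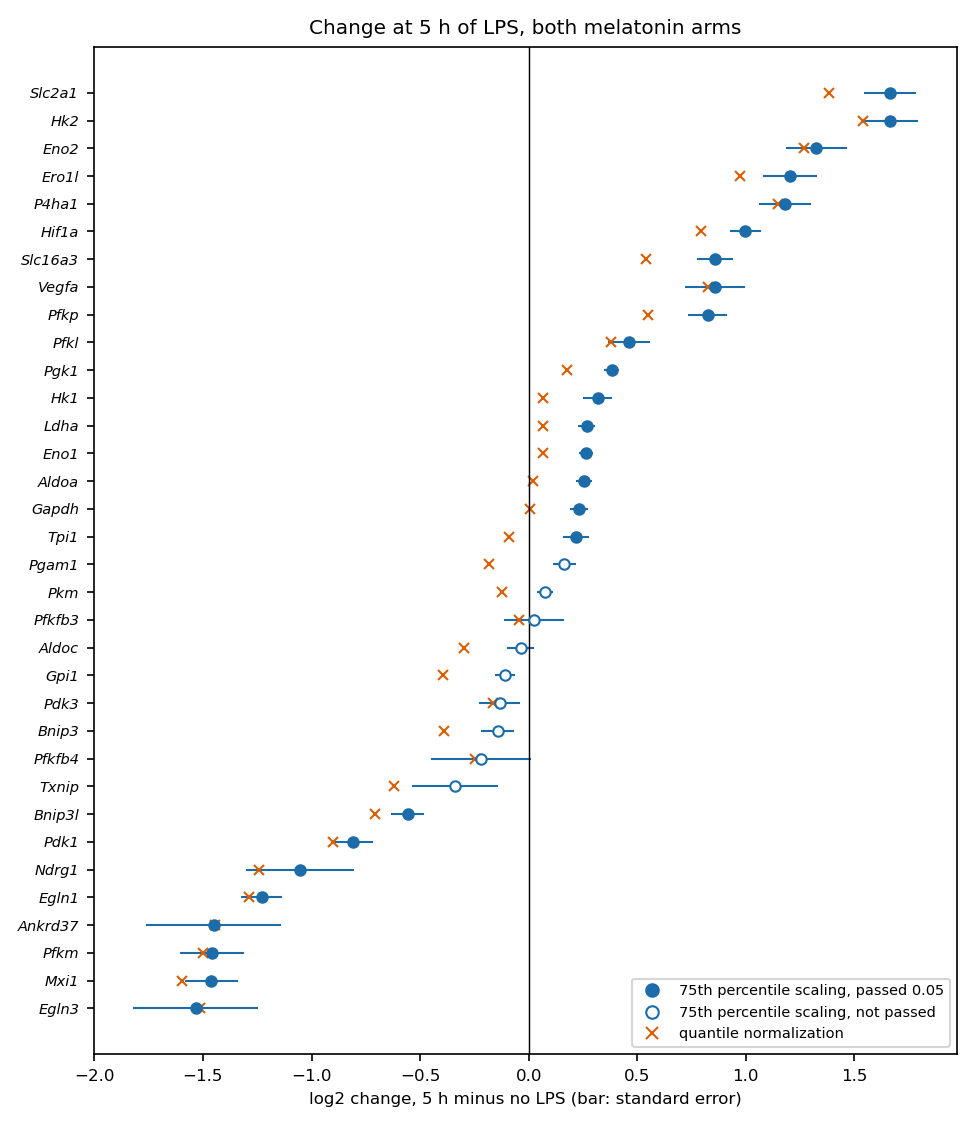
Log2 change at 5 h of LPS for each of the 34 genes, as a mean over both melatonin arms; bars are standard errors, filled circles passed an adjusted p of 0.05, open circles did not, and crosses give the same change under quantile normalization. Slc2a1 (1.66) and Hk2 (1.66) stand highest and Egln3 (-1.53) lowest, and for the small rises from Hk1 to Tpi1 the crosses lie close to or below 0.

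Genes of glucose entry rose in both arms. Slc2a1 encodes the carrier GLUT1, which brings glucose into the cell; its probe lies at chromosome 4, 118809864 to 118809923, in the mm9 coordinates of the array design. It stood at 3.78, 5.10, 5.46 and 5.67 at 0, 1, 3 and 5 h without melatonin, and at 3.53, 4.53, 4.77 and 4.98 with it. Every LPS array of either arm was above both arrays without LPS, and the melatonin arm was lower at each time. The change was 1.16 at 1 h (SE 0.12, adjusted p = 0.0125), 1.46 at 3 h (adjusted p = 0.00112) and 1.66 at 5 h (SE 0.12, adjusted p = 0.000504), which is 3.17-fold. Under quantile normalization it was 1.38 at 5 h. The 1 h call ended without either 1 h array (adjusted p = 0.118 without the one that had no melatonin, 0.0794 without the other).

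The hexokinases trap glucose by phosphorylation, and the inducible one moved far more than the constitutive one. Hk2, with its probe at chromosome 6, 82675056 to 82675115, stood at 1.79, 2.39, 3.24 and 3.62 without melatonin and at 1.27, 1.65, 2.21 and 2.77 with it. Both arms climbed at each step, from 0 h on, and the melatonin arm stayed below the other. Hk2 rose by 1.19 at 3 h (SE 0.13, adjusted p = 0.00241) and 1.66 at 5 h (SE 0.13, adjusted p = 0.000599); at 1 h the change was 0.49 (adjusted p = 0.155). Hk1 stood at 7.59, 7.72, 7.96 and 8.0 without melatonin and at 7.57, 7.63, 7.68 and 7.80 with it. Its change at 5 h was 0.32 (SE 0.07, adjusted p = 0.0118), but 0.07 under quantile normalization (adjusted p = 0.27). The call also ended without the untreated array (0.0772) or the array of 5 h LPS and no melatonin (0.081). A further probe of Hk1 went the other way, with -0.62 at 3 h and -0.28 at 5 h.

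**Figure D2:**
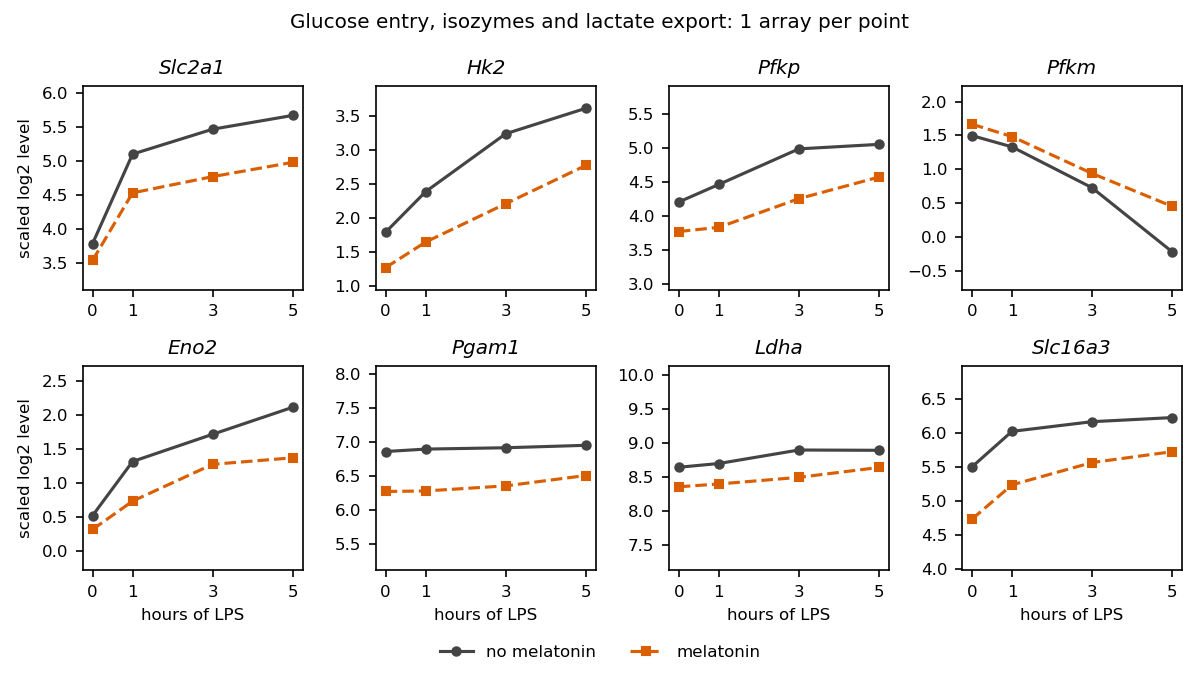
Scaled log2 level against hours of LPS for 8 genes of glucose entry, glycolysis and lactate export; each point is 1 array, circles have no melatonin and squares have it, and each panel spans at least 3 log2 units. Slc2a1, Hk2, Pfkp, Eno2 and Slc16a3 climb in both arms with the melatonin arm lower, Pfkm falls, and Pgam1 and Ldha run almost level with the melatonin arm below.

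In the upper part of the pathway the phosphofructokinase subunits, which form the committed step, parted. Pfkp, the platelet-type subunit, stood at 4.20, 4.46, 4.98 and 5.05 without melatonin and at 3.77, 3.83, 4.25 and 4.57 with it. It rose by 0.63 at 3 h (SE 0.09, adjusted p = 0.00508) and 0.82 at 5 h (SE 0.09, adjusted p = 0.00152). Pfkm, the muscle-type subunit, stood at 1.5, 1.33, 0.73 and -0.21 without melatonin and at 1.67, 1.48, 0.94 and 0.46 with it. It fell at each step in both arms, with changes of -0.75 at 3 h (SE 0.15, adjusted p = 0.0144) and -1.46 at 5 h (SE 0.15, adjusted p = 0.00127). The 3 h call of Pfkm ended without the untreated array (adjusted p = 0.0983) or either 3 h array (0.0742 and 0.0778). Pfkl, the liver-type subunit, changed by 0.46 at 5 h (adjusted p = 0.0116); that call ended without the untreated array (0.0848) or the array of 5 h LPS and melatonin (0.0564), and a further probe of Pfkl gave 0.16.

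The other upper enzymes moved little. Aldoa, the main aldolase, changed by 0.25 at 5 h (SE 0.04, adjusted p = 0.00413) and Tpi1, triosephosphate isomerase, by 0.22 (SE 0.06, adjusted p = 0.0275). Under quantile normalization these were 0.02 (adjusted p = 0.552) and -0.09 (adjusted p = 0.134), so the direction of Tpi1 flips. The call of Tpi1 also ended without any 1 of the arrays at 0, 1 or 5 h (0.0525 to 0.164). Aldoc, a second aldolase, changed by -0.23 at 3 h (adjusted p = 0.0382) and by -0.04 at 5 h (adjusted p = 0.671), or -0.43 and -0.30 (adjusted p = 0.0119) under quantile normalization; the 3 h call ended without any 1 of the arrays at 0, 1 or 3 h (0.0926 to 0.19). Gpi1, phosphoglucose isomerase, passed at no LPS time (-0.11 at 5 h, adjusted p = 0.114) but was lower by quantile normalization (-0.39, adjusted p = 0.00137). Pfkfb3 and Pfkfb4 make the sugar bisphosphate that switches phosphofructokinase on. Pfkfb3 changed by 0.03 at 5 h (95% interval -0.31 to 0.36, adjusted p = 0.897). Pfkfb4 changed by -0.22 (95% interval -0.79 to 0.34, adjusted p = 0.472).

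In the lower part of the pathway the exception was again the less usual isozyme. Eno2, known as the neuronal enolase, stood at 0.53, 1.32, 1.72 and 2.12 without melatonin and at 0.32, 0.74, 1.28 and 1.38 with it. All 6 LPS arrays were above both arrays without LPS, and Eno2 rose by 1.08 at 3 h (SE 0.14, adjusted p = 0.004) and 1.32 at 5 h (SE 0.14, adjusted p = 0.00143). Eno1, the ubiquitous enolase, changed by 0.26 at 5 h (SE 0.03, adjusted p = 0.00236). Gapdh, which makes NADH in glycolysis, changed by 0.23 (SE 0.04, adjusted p = 0.00699), and Pgk1, which makes ATP from its product, by 0.38 (SE 0.03, adjusted p = 0.000872). Under quantile normalization these were 0.06 for Eno1 (adjusted p = 0.0579), 0.00 for Gapdh (adjusted p = 0.897) and 0.18 for Pgk1 (adjusted p = 0.00575). Gapdh stood at 8.84, 8.87, 9.05 and 9.06 without melatonin and at 8.67, 8.72, 8.76 and 8.91 with it, so its whole range was narrow. The call of Gapdh at 5 h also ended without the untreated array (adjusted p = 0.0559). Pgam1, phosphoglycerate mutase, changed by 0.16 (adjusted p = 0.0516) and Pkm, pyruvate kinase, by 0.07 (adjusted p = 0.149). Both were lower under quantile normalization, Pgam1 by -0.18 (adjusted p = 0.047) and Pkm by -0.13 (adjusted p = 0.00925).

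At the end of the pathway the lactate exporter rose and a brake on mitochondrial pyruvate use fell. Slc16a3 encodes MCT4, which carries lactate out of the cell, and its probe lies at chromosome 11, 120820023 to 120820082. It stood at 5.50, 6.02, 6.16 and 6.22 without melatonin and at 4.73, 5.23, 5.56 and 5.72 with it. Within each arm all LPS arrays were above the array without LPS, but with melatonin the 1 h array stayed below the untreated array. The change was 0.75 at 3 h (SE 0.08, adjusted p = 0.00251) and 0.86 at 5 h (SE 0.08, adjusted p = 0.00108), or 0.54 at 5 h under quantile normalization (adjusted p = 0.00813). At 1 h it was 0.51 (adjusted p = 0.0476), a call that ended under quantile normalization (0.0997) and without any 1 of the 8 arrays (0.0588 to 0.346). Ldha, which makes lactate from pyruvate, changed by 0.27 at 5 h (SE 0.04, adjusted p = 0.00429), and by 0.06 under quantile normalization (adjusted p = 0.0888). Pdk1, a HIF-1 target, phosphorylates and shuts pyruvate dehydrogenase. It stood at 2.57, 2.37, 1.83 and 1.65 without melatonin and at 2.22, 2.05, 1.52 and 1.52 with it, and fell by 0.81 at 5 h (SE 0.09, adjusted p = 0.00169). The further probes of Pdk1 gave -0.71, -0.59, -0.35 and 0.08 at 5 h. Pdk3, a related kinase, changed by -0.13 at 5 h (adjusted p = 0.297).

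The oxygen-sensing genes moved against each other. Hif1a, with its probe at chromosome 12, 75047819 to 75047878, stood at 2.83, 3.1, 3.65 and 3.84 without melatonin and at 2.82, 2.99, 3.53 and 3.81 with it. The arms lay almost on top of each other, and Hif1a rose by 0.77 at 3 h (SE 0.07, adjusted p = 0.00155) and 1.00 at 5 h (SE 0.07, adjusted p = 0.000504). Egln1 encodes PHD2, the main hydroxylase that marks HIF-1 alpha for decay; its probe lies at chromosome 8, 127432510 to 127432569. Egln1 stood at 2.16, 1.95, 1.27 and 0.83 without melatonin and at 1.91, 1.69, 1.15 and 0.78 with it. It fell by 0.82 at 3 h (SE 0.09, adjusted p = 0.00278) and by 1.23 at 5 h (SE 0.09, adjusted p = 0.000582), and all arrays at 3 and 5 h were below every earlier array. Egln3, which encodes PHD3 and is known as one of the most hypoxia-inducible genes, stood at -0.58, -0.71, -2.07 and -2.70 without melatonin. With melatonin it stood at -0.62, -0.66, -1.51 and -1.57, higher than the other arm at 3 and 5 h. Its change at 5 h was -1.53 (SE 0.29, adjusted p = 0.00857); this call ended without the untreated array (0.0578).

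**Figure D3:**
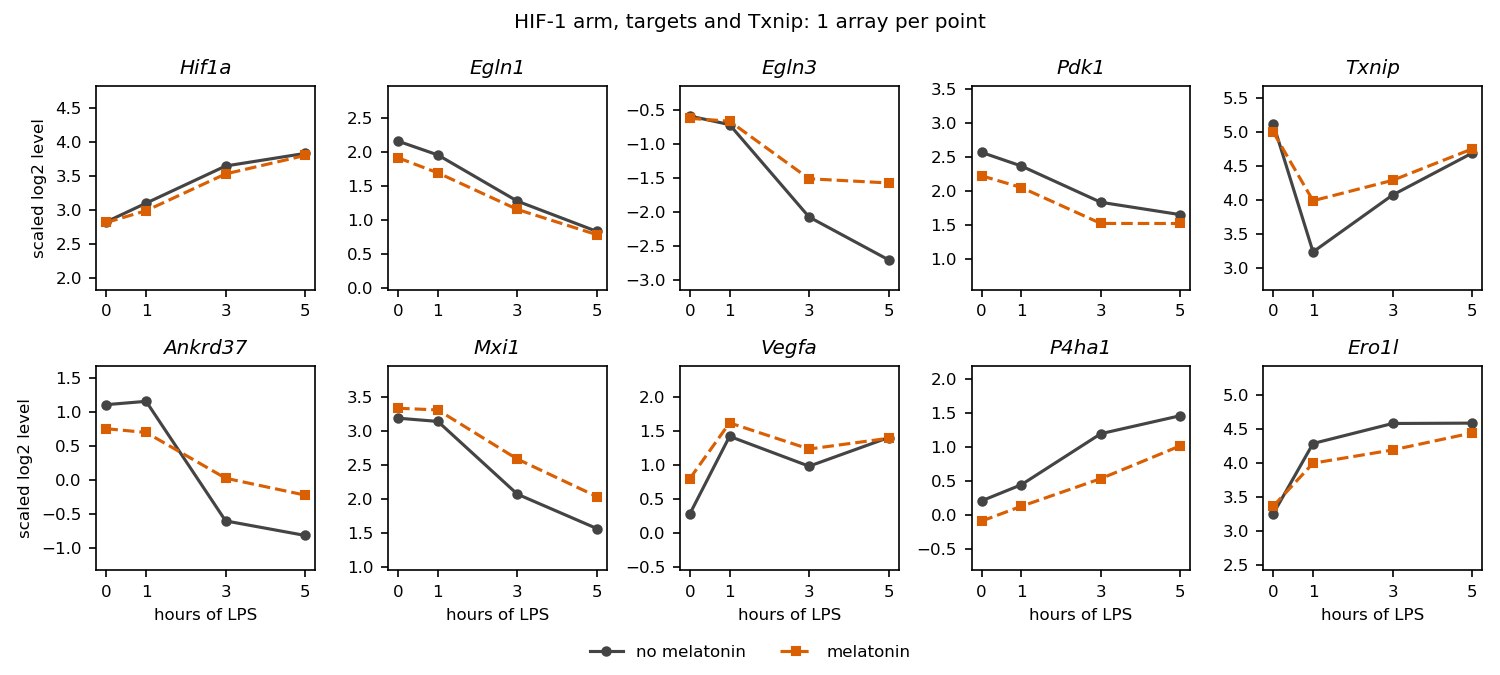
Scaled log2 level against hours of LPS for Hif1a, the sensors Egln1 and Egln3, Txnip and 6 targets of HIF-1; each point is 1 array, circles have no melatonin and squares have it, and each panel spans at least 3 log2 units. Hif1a, P4ha1 and Ero1l climb, Egln1, Egln3, Pdk1, Ankrd37 and Mxi1 fall from 1 h on, and Txnip drops at 1 h and returns.

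The other HIF-1 targets split, with 3 of the 8 measured raised at 5 h and 4 lowered, where limma called 24.9% of all genes up and 19.4% down. Of the raised ones, Ero1l makes disulfide bonds in the endoplasmic reticulum, P4ha1 is a catalytic subunit of the collagen prolyl hydroxylase and Vegfa is the angiogenic growth factor. Ero1l stood at 3.25, 4.28, 4.58 and 4.58 without melatonin and at 3.36, 3.99, 4.19 and 4.44 with it. Its change was 0.83 at 1 h (adjusted p = 0.0389) and 1.20 at 5 h (SE 0.12, adjusted p = 0.00133). P4ha1 stood at 0.21, 0.44, 1.19 and 1.46 without melatonin and at -0.09, 0.13, 0.53 and 1.02 with it, and rose by 1.18 at 5 h (SE 0.12, adjusted p = 0.0012). Vegfa stood at 0.29, 1.43, 0.99 and 1.41 without melatonin and at 0.81, 1.63, 1.24 and 1.40 with it. It was up within the first hour in both arms, by 0.98 (adjusted p = 0.0316), and by 0.86 at 5 h (SE 0.14, adjusted p = 0.00495). Further probes of Vegfa gave 1.66, 1.33 and -0.27 at 5 h. The 1 h calls of Ero1l and Vegfa ended without either 1 h array, with adjusted p = 0.292 and 0.158 for Ero1l and 0.254 and 0.174 for Vegfa.

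The lowered targets were Mxi1, Ankrd37, Ndrg1 and Bnip3l. Mxi1, an antagonist of Myc, stood at 3.19, 3.14, 2.07 and 1.56 without melatonin and at 3.33, 3.31, 2.58 and 2.03 with it. Both 1 h arrays were close to the start, and Mxi1 fell by 0.93 at 3 h (adjusted p = 0.004) and 1.46 at 5 h (SE 0.12, adjusted p = 0.0007). Ankrd37, an ankyrin repeat gene, stood at 1.10, 1.15, -0.61 and -0.82 without melatonin and at 0.75, 0.69, 0.02 and -0.23 with it. All arrays at 3 and 5 h were below all earlier ones, and the change at 5 h was -1.45 (SE 0.31, adjusted p = 0.013). Ndrg1, a stress-response gene, stood at 4.25, 4.10, 2.77 and 3.27 without melatonin and at 3.16, 2.96, 2.55 and 2.03 with it. Here the arms overlapped across times, and the change at 5 h was -1.05 (SE 0.25, adjusted p = 0.018). The 5 h call of Ankrd37 ended without the untreated array (0.0841) or the array of 5 h LPS and no melatonin (0.0878). That of Ndrg1 ended without the untreated array (0.103) or the array of 5 h LPS and melatonin (0.107). Bnip3l and Bnip3 encode mitophagy receptors: Bnip3l fell by 0.56 at 5 h (SE 0.07, adjusted p = 0.00282), while Bnip3 changed by -0.14 (adjusted p = 0.175) or, under quantile normalization, by -0.39 (adjusted p = 0.00545).

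Txnip, which holds glucose carriers off the cell surface, was the 1 listed member called lower at 1 h. Ddit4, a surrounding gene whose levels are given below, was also lowest at 1 h in both arms. Txnip stood at 5.12, 3.24, 4.08 and 4.69 without melatonin and at 5.00, 3.99, 4.29 and 4.76 with it. The lowest array of each arm was the 1 h array, and by 5 h both arms had come closer to their start. The change was -1.45 at 1 h (SE 0.20, adjusted p = 0.0309), -0.88 at 3 h (adjusted p = 0.0209) and -0.34 at 5 h (95% interval -0.83 to 0.15, adjusted p = 0.217). A further probe of Txnip gave -1.34, -0.84 and -0.32. The 1 h call ended without the untreated array (0.154), without the array of 1 h LPS and no melatonin (0.0651), and without any of the 3 h or 5 h arrays (0.0755 to 0.0879). The 3 h call ended without the untreated array (0.127) or either 3 h array (0.115 and 0.0922). At 5 h Txnip was lower under quantile normalization (-0.62, adjusted p = 0.045).

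The genes around these pathways were taken from 7 lists of 87 genes in all, of which 75 were measured: 4 rose and 0 fell at 1 h, 17 and 19 at 3 h, and 24 and 22 at 5 h. As shares these were 5.33% and 0% at 1 h (1.67% and 0.284% of all genes), 22.7% and 25.3% at 3 h (18.6% and 15.1%), and 32.0% and 29.3% at 5 h (24.9% and 19.4%). Those raised at 1 h included Bhlhe40 (1.68), Cited2 (1.15) and Tfrc (0.53). Of 16 alternatives tried, the 1 h call held in 16 for Cited2, in 13 for Bhlhe40 and in only 1 for Tfrc. The 5 that were lower only at an unadjusted p under 0.05 by limma were Angptl4, Arrdc2, Bhlhe41, Ddit4 and Taldo1. All those named at 1 h were named after their values were seen. With quantile normalization 12 rose and 22 fell at 3 h, and 16 rose and 27 fell at 5 h. Of the 36 calls at 3 h 10 held under every alternative tried, 26 were lost without the untreated array and 23 without the array of 3 h LPS and no melatonin. Of the 46 calls at 5 h 23 held under every alternative tried, and 18 were lost without the untreated array, among them Adm (adjusted p = 0.0613), Car9 (0.0617), Pdp2 (0.0611), Pgd (0.0752), Dlat (0.0977), Bpgm (0.12), Arrdc4 (0.156), Gbe1 (0.19), Slc2a3 (0.201) and Rpe (0.267). The list of HIF-1 regulators leaves out Hif1a, Egln1 and Egln3, which were described above. Their changes at 5 h were 1.00, -1.23 and -1.53, so Egln1 and Egln3 fell but are not counted here. Of the regulators on this list, 6 of 10 rose at 5 h and 0 fell by limma, also 0 at an unadjusted p under 0.05. With quantile normalization 3 rose, and without the untreated array 4 rose. The shares of all genes at 5 h, 24.9% up and 19.4% down, stand beside this count and those of the lists that follow. Siah2, a ubiquitin ligase that destroys EGLN enzymes, stood at 1.40, 2.12, 3.53 and 3.84 without melatonin and at 1.43, 1.89, 3.04 and 3.35 with it. It rose by 2.18 at 5 h (SE 0.15, adjusted p = 0.000437). Eloc, a subunit of the VHL ubiquitin ligase, changed by 0.81 and Cited2, which competes with HIF-1 for its coactivator, by 0.47, the latter only 0.15 under quantile normalization (adjusted p = 0.165).

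Of 22 further HIF-1 targets, 9 rose and 6 fell at 5 h, or 6 and 6 with quantile normalization and 5 and 3 without the untreated array. Adm, the vasodilator adrenomedullin, rose by 2.44 (SE 0.47) and Rsbn1 by 2.21 (SE 0.20). Angptl4, an inhibitor of lipoprotein lipase, fell by 4.0 (SE 0.42), Plod1, a collagen lysyl hydroxylase, by 1.69 (SE 0.30), and Car9, a carbonic anhydrase, by 0.94 (SE 0.18). Of 10 genes of pyruvate entry into mitochondria 3 rose and 3 fell, or 2 and 6 with quantile normalization and 1 and 3 without the untreated array. Dld, the shared lipoamide dehydrogenase, rose by 0.94, the phosphatase Pdp2 by 0.59 and Dlat, the acetyltransferase, by 0.33. Pdk2, a pyruvate dehydrogenase kinase, was not well above background on either 5 h array. Taking each 5 h array at its dimmest probe above background, it was at least 2.21-fold lower there, a bound that was not tested. By limma the unbounded change was -2.75 (adjusted p = 0.00143). With a common floor over all arrays it was -1.01 (adjusted p = 0.0912), so the call ended. The phosphatase Pdp1 fell by 2.02 (SE 0.25) and Pdhx, a structural subunit, by 0.68.

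Other carriers and isozymes moved less evenly, with 2 of 11 raised and 4 lowered at 5 h, or 1 and 2 without the untreated array. Tigar, which draws sugar away from phosphofructokinase, rose by 0.82 and the carrier Slc2a3 by 0.52. Slc2a8, above background on 1 of the 2 arrays at 5 h, fell by 1.5 (SE 0.23), or by 0.62 with normexp background correction, Bpgm, which makes bisphosphoglycerate, by 1.25 (SE 0.30) and Eno3, the muscle enolase, by 0.82. Of 7 pentose phosphate genes 1 rose, Rpe by 0.33, and 3 fell, Pgd by 0.51, Pgls by 0.42 and Taldo1 by 0.39; with quantile normalization 0 rose and 5 fell, and without the untreated array 0 and 2. Of 10 glycogen genes 2 rose (1 without the untreated array), Pgm2 by 0.65 and the branching enzyme Gbe1 by 0.50, and 4 fell, led by the phosphorylase Pygb (-1.49) and the phosphorylase kinase subunits Phka1 (-1.26) and Phkb (-0.60). In the glucose-sensing axis of MondoA and ChREBP, whose best known target is Txnip, 1 of 7 genes rose and 3 fell. The partner Mlx rose by 0.85, and the arrestin relatives Arrdc4, Arrdc2 and Arrdc1 fell by 1.23, 1.22 and 0.80. Their levels without melatonin were -0.47 and -2.30 for Arrdc4, 1.81 and 0.52 for Arrdc2, and 2.19 and 1.29 for Arrdc1 at 0 and 5 h. A further relative, Arrdc3, was above background on neither 3 h array but on both 5 h arrays, and was not called at 5 h.

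Melatonin was associated with lower levels through most of glycolysis. Of the 34 genes 21 were lower and 3 higher with melatonin over the 4 times, where limma called 40.6% of all genes (25.3% lower, 15.3% higher). The median difference was -0.19 over the 34 genes and -0.10 over all genes tested. All 21 were lower at each of the 4 times and all 3 were higher at each, though a test of the mean favours that. Of the 21, 13 were among the 17 members raised at 5 h of LPS, 2 among those lowered and 6 among neither. The same overlap was not counted over all genes, so these counts are a description only. With quantile normalization 15 of the 34 were lower and 3 higher. The share of all melatonin calls that were higher then went from 37.7% to 52.6%.

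The lower genes included all 3 of glucose entry, all 6 of lower glycolysis and all 4 of lactate and pyruvate fate. Of all genes 25.3% were lower by limma. Under quantile normalization Hk1, Gapdh and Pkm of these sets did not pass. Hk2 differed by -0.78 (SE 0.09, adjusted p = 0.00392), Slc16a3 by -0.66 (SE 0.06, adjusted p = 0.00254), Pfkp by -0.57 (SE 0.06, adjusted p = 0.00357) and Slc2a1 by -0.55 (SE 0.08, adjusted p = 0.00681). In the cultures without LPS the difference was already -0.77 for Slc16a3 and -0.52 for Hk2. Pgam1, which passed at no LPS time, stood at 6.86, 6.90, 6.92 and 6.95 without melatonin and at 6.27, 6.28, 6.36 and 6.51 with it. The arms did not overlap, and the difference was -0.55 (SE 0.04, adjusted p = 0.00222), or -0.29 under quantile normalization (adjusted p = 0.00743). Eno1 differed by -0.38 (SE 0.02), Tpi1 by -0.31 (SE 0.04), Ldha by -0.31 (SE 0.03) and Pgk1 by -0.30 (SE 0.02). Under quantile normalization these were -0.17, -0.12, -0.11 and -0.09, all still past the threshold. Eno2 differed by -0.49 (adjusted p = 0.0139), a call that ended without either 1 h array (0.0592 and 0.0587) or either 3 h array (0.0531 and 0.0528).

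**Figure D4:**
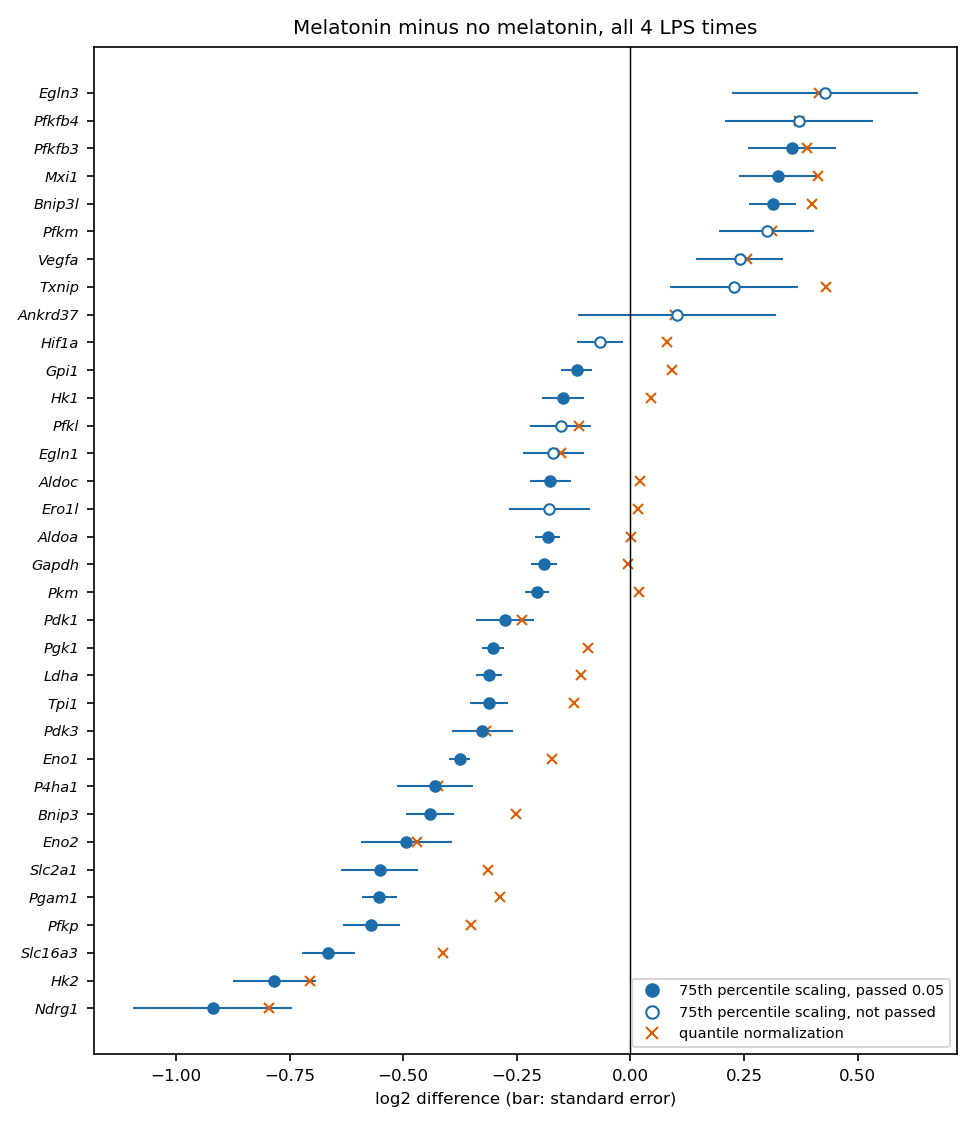
Log2 difference of melatonin minus no melatonin over the 4 LPS times for each of the 34 genes; bars are standard errors, filled circles passed an adjusted p of 0.05, open circles did not, and crosses give quantile normalization. Ndrg1 (-0.92) and Hk2 (-0.78) stand lowest, and for abundant enzymes such as Aldoa, Gapdh and Pkm the crosses lie at about 0.

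For several other glycolytic genes the difference depended on scaling. Pkm differed by -0.21, Gapdh by -0.19, Aldoa by -0.18, Aldoc by -0.18, Hk1 by -0.15 and Gpi1 by -0.12. Under quantile normalization they differed by 0.02, -0.01, 0.00, 0.02, 0.05 and 0.09, none past the threshold, with the sign turned for all but Gapdh. Pfkm, Pfkfb4 and Pfkl passed under neither scaling. They differed by 0.30, 0.37 and -0.15, and under quantile normalization by 0.31, 0.37 and -0.11. A further probe of Pfkl gave -0.47 (adjusted p = 0.00418 by limma). Pdk1 and Pdk3 differed by -0.28 (adjusted p = 0.021) and -0.33 (adjusted p = 0.0147). The call of Pdk1 ended without any of the arrays at 0, 1 or 3 h (0.0661 to 0.0917) and that of Pdk3 without either 3 h array (0.0584 and 0.0581). Pfkfb3 was higher by 0.35 (SE 0.10, adjusted p = 0.0329), a call lost without any of the 6 LPS arrays (0.0611 to 0.096).

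Among the hypoxia genes the melatonin difference did not follow Hif1a, which differed by -0.07 (95% interval -0.19 to 0.06, adjusted p = 0.319). Ndrg1 had the widest gap of the 34 genes, -0.92 (SE 0.18, adjusted p = 0.0119). Its levels given above show the gap at each time, smallest at 3 h. Bnip3 stood at 4.29, 4.57, 4.16 and 4.22 without melatonin and at 3.98, 4.09, 3.64 and 3.76 with it, and differed by -0.44 (SE 0.05, adjusted p = 0.00413). Its relative Bnip3l went the other way, at 2.78, 2.76, 2.44 and 2.20 without melatonin and 3.09, 3.09, 2.69 and 2.55 with it, a difference of 0.31 (SE 0.05, adjusted p = 0.0084). The arms thus lay apart at each time for both mitophagy receptors, in opposite directions. P4ha1 differed by -0.43 (SE 0.08, adjusted p = 0.0125), and Mxi1 higher by 0.33 (SE 0.09, adjusted p = 0.0302), the latter lost without any of the 6 LPS arrays (0.0591 to 0.105). Egln1, Egln3, Ankrd37, Vegfa, Ero1l and Txnip did not pass, with differences from -0.18 for Ero1l to 0.43 for Egln3 (95% interval -0.07 to 0.93).

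Of the 75 surrounding genes, 15 were higher and 16 lower with melatonin, or 22 and 11 with quantile normalization. The reported counts are 20.0% and 21.3% of the 75, where 15.3% of all genes were higher and 25.3% lower. Of these 31 calls 13 held under every alternative tried. The most were lost, 14, without either 3 h array, and 11 without either 1 h array. Ddit4, a stress-induced inhibitor of mTOR, stood at 3.00, 1.81, 2.55 and 3.79 without melatonin and at 4.55, 3.96, 4.32 and 4.58 with it, a difference of 1.56 (SE 0.21, adjusted p = 0.005). The highest array without melatonin was below the lowest with it. Genes that feed pyruvate into mitochondria were mixed: Pdha1, the catalytic subunit of pyruvate dehydrogenase, was higher by 0.56 (SE 0.07, adjusted p = 0.00418) and Pdp1 by 0.80, while Pdp2 differed by -0.39. Pdk2, not well above background on either 5 h array or on 1 of the 2 at 3 h, differed by 1.33 (adjusted p = 0.00703), by 0.48 with normexp background correction and by 0.52 with a common floor (adjusted p = 0.179). Of other isozymes and carriers, Pfkfb2 (1.13), Bpgm (0.85), Slc2a8 (0.82, or 0.40 with normexp background correction) and Pfkfb1 (0.29) were higher. The hexokinase Hk3 (-0.67), Eno3 (-0.61), the lactate carrier Slc16a1 (-0.47) and Slc2a3 (-0.37) were lower.

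Among regulators of HIF-1, Hif1an, the asparagine hydroxylase that silences HIF-1, was higher by 0.55 (SE 0.09, adjusted p = 0.0077), with Cited2 (0.26) and the HIF-1 partner Arnt (0.25), and Eloc was lower (-0.40). Of the further HIF-1 targets 8 of 22 were lower and 1, Ddit4, was higher, where limma called 25.3% of all genes lower and 15.3% higher. The lower ones included Bhlhe40 (-0.76), Jmjd6 (-0.64), Tfrc (-0.37), Ak4 (-0.34), Mif (-0.34), Fam162a (-0.25) and Higd1a (-0.22); under quantile normalization Fam162a and Higd1a were at 0.01 and 0.03. The glycogen phosphorylase Pygb (0.76), Pgm2 (0.29), Pgd of the pentose phosphate pathway (0.28) and Arrdc1 (0.48) were higher, and Ugp2 (-0.25) and Tkt (-0.15, or 0.09 under quantile normalization) lower.

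Whether melatonin altered the size of the LPS response was tested as the melatonin difference over the LPS arrays minus that without LPS. By limma 0 of 34 genes passed an adjusted p of 0.05, and so did 0% of all 20076 genes. At an unadjusted p under 0.05 there were 754 genes (3.76%) and 2 of the 34, named for their values: Slc2a1 at -0.41 (95% interval -0.70 to -0.11, adjusted p = 0.908) and Ero1l at -0.39 (95% interval -0.75 to -0.02, adjusted p = 0.908). For Slc2a1 the melatonin minus no melatonin difference was -0.25 without LPS and -0.57, -0.70 and -0.69 at 1, 3 and 5 h. With 1 array without LPS per arm, this comparison has 2 residual degrees of freedom. Without the 1 h array of the arm that had no melatonin, 1 gene was higher and 16 lower past the adjusted threshold, and 2684 genes (13.4%) with 5 of the 34 had an unadjusted p under 0.05. Without the 1 h array of the melatonin arm these were 5 higher and 35 lower, and 2700 genes with 5 of the 34; none of the 34 passed the adjusted threshold in either.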

How the data were processed

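Total RNA of 8 RAW264.7 cultures was labelled with Cy3 and hybridised to 8 one-colour Agilent arrays, per the labels. The authors' files hold spot intensity after background subtraction by Agilent Feature Extraction 12.0.3.1, per the submitters' processing notes and the file headers. The deposited flag columns are other values, 0 or 1, for background, outliers and saturation, per the file headers. The deposited log2 table of the series holds 1 common set of values in every column, the mark of quantile normalization; no source used here names its tool.

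Control and outlier spots were left out, spots of a probe averaged, and log2 intensity minus the array's 75th percentile was used. Probes had to be well above background on 2 arrays. A gene was read from its brightest probe on average, and a probe without a symbol counted as a gene of its own, which gave 20076 genes. An additive model of LPS time and melatonin (3 residual degrees of freedom) was fitted in limma 3.58.1 (R 4.3.3). A second model added a melatonin by LPS term. Both used a trend on mean level, Benjamini-Hochberg adjustment at 0.05 and 2-sided tests. The fit was tested on simulated data with independent noise around a flat level and changes at 5 h only. Such data are simpler than the real arrays and do not check their spread. The 95% intervals are limma's. The number of arrays limits the precision, as 1 array per condition leaves no replicate. Alternatives were quantile normalization, the deposited table, normexp background with an offset of 50, no filter and a stricter filter, a common floor, no trend, the mean of a gene's probes, and leaving out each array. All listed members were named, and of each surrounding list up to 3 genes raised and 3 lowered with the largest 5 h change, and every gene called for melatonin; others are said to be named after their values were seen. The members and lists were chosen with earlier results of these data known. Ero1l is Ero1a in current RefSeq. Probe coordinates are those of the array design, on mm9, and promoters those of RefSeq, on GRCm38.p6, where 2 members had no window. The values of 1 gene of the wider lists are not reported here, although the counts include it.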

Additional observations from a re-analysis of the deposited data

How the results depend on the processing

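Of the calls among the 34 genes, 11 of 25 at 3 h, 14 of 25 at 5 h and 12 of 24 for melatonin held in all 16 alternatives, and 0 of 5 at 1 h. At 5 h these were Slc2a1, Hk2, Pfkp, Pfkm, Eno2, Slc16a3, Pdk1, Hif1a, Egln1, Bnip3l, Vegfa, P4ha1, Ero1l and Mxi1. For melatonin they were Slc2a1, Hk2, Pfkp, Tpi1, Pgam1, Eno1, Ldha, Slc16a3, Bnip3, Bnip3l, Ndrg1 and P4ha1. The number called for LPS 1 h was 5, or 1 with no filter, 0 with a common floor and 0 with no intensity trend. For LPS 3 h it was 25, or 14 with no filter and 15 with no intensity trend. With 1 array left out the number ranged from 0 to 4 for LPS 1 h, 11 to 23 for LPS 3 h, 18 to 25 for LPS 5 h and 16 to 23 for melatonin, and stayed 0 for melatonin by LPS, which could not be fitted without either array that had no LPS.

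Signs turned only for small changes. With quantile normalization the LPS 3 h change was -0.0138 for Aldoa, -0.0152 for Gapdh, -0.20 for Pgam1 and -0.085 for Pkm, and the LPS 5 h change -0.0928 for Tpi1, -0.18 for Pgam1 and -0.13 for Pkm. The melatonin difference was 0.0457 for Hk1, 0.0909 for Gpi1, 0.0011 for Aldoa, 0.0215 for Aldoc and 0.0196 for Pkm. With the deposited table the LPS 3 h change was -0.0107 for Aldoa, -0.0107 for Gapdh and -0.088 for Pkm, the LPS 5 h change -0.0329 for Tpi1 and -0.13 for Pkm, and the melatonin difference 0.0146 for Hk1, 0.0579 for Gpi1 and 0.0248 for Aldoc. With the mean of a gene's probes Hk1 at LPS 3 h was -0.0844. The cause was not tested. The reported model already compares melatonin within each LPS time.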
